A study of Mus musculus with 12 samples.

Results

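Matrix metalloproteinases and their tissue inhibitors were followed in PB3. This is a line of mouse breast cancer cells that is negative for oestrogen receptor, progesterone receptor and HER2. The set held 7 metalloproteinases (Mmp2, Mmp3, Mmp9, Mmp10, Mmp11, Mmp13 and Mmp14) and 3 inhibitors (Timp1, Timp2 and Timp3), chosen by gene symbol. These were 10 of the 55573 genes in the deposited tables, and all 10 were among the 14226 genes tested. Polyadenylated RNA had been sequenced from 12 libraries in 4 groups of 3. ERI-R was labelled as eribulin-resistant (the drug's name is spelled Erubilin in the label), PAC-R as paclitaxel-resistant and VIN-R as vinorelbine-resistant PB3. Control was the untreated parental line. Each drug was used at 300, 500 and 800 nM to derive the resistant clones, and the labels do not say which concentration a library stands for. Eribulin and vinorelbine block the growth of microtubules and paclitaxel stabilises them. The labels call the resistant cells clones and do not say how many clones a line holds, nor whether the 3 libraries of a group came from separate cultures. The p-values therefore measure only the spread between these libraries.

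Matrix metalloproteinases are zinc enzymes, mostly secreted as inactive proenzymes, that cut collagens, laminin, fibronectin and many other proteins around cells. Tissue inhibitors of metalloproteinases (TIMPs) bind the active enzymes and block them. In tumours the enzymes are made by cancer cells and by the fibroblasts and leukocytes among them, and they are known for the breakdown of basement membrane during invasion. The balance between enzymes and inhibitors is set partly by transcription, and the promoters of several of the secreted enzymes carry binding sites of AP-1, a dimer of Fos and Jun proteins.

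Levels are given as CPM, the count per 1000000 counts of the library. Totals of expected counts lay between 11141028 and 13454395 per library, where a gene with 3 counts has 0.223 to 0.269 CPM. The libraries differed in transcripts of leukocytes. Lyz2, the lysozyme of macrophages and granulocytes, was at 0 CPM in ERI-R 3, PAC-R 3, VIN-R 3 and Control 1, and between 182 and 1271 CPM in the other 8 libraries. These are called libraries without and with Lyz2, a division made from the data and not by the study. The summed level of 12 macrophage markers was between 637 and 4108 CPM with Lyz2 and between 19.5 and 142 CPM without. Most of the sum without Lyz2 was Cd14, with between 17.8 and 139 CPM, and no other marker of this list exceeded 2.47 CPM there. The 8 neutrophil markers summed to between 19.8 and 244 CPM with Lyz2 and to between 4.91 and 9.44 CPM without. These markers did not move alike. With Lyz2, S100a8, S100a9 and Csf3r reached 70.0, 118 and 50.5 CPM, but Camp, Mpo, Cxcr2 and Elane at most 5.39, 5.10, 1.00 and 0.783 CPM. Ly6g was at 0 with Lyz2 and reached 0.0749 CPM without. The 10 fibroblast markers summed to between 43.0 and 123 CPM with Lyz2 and between 21.2 and 70.5 CPM without, and the 7 endothelial markers to between 2.93 and 20.0 CPM with and between 0.269 and 3.34 CPM without. The 7 T and B cell markers summed to at most 2.00 CPM. Of these lists, 2 T and B cell markers and 1 endothelial marker were at 0 in all 12 libraries. Mitochondrially encoded genes took between 3.22 and 4.35% of counts with Lyz2 and between 1.50 and 2.45% without. The labelled cell type was checked against 9 epithelial markers, which summed to between 1186 and 4887 CPM over the 12 libraries. Krt8 and Krt18, with medians of 766 and 784 CPM, made up most of that sum outside ERI-R, and the other 7 markers were low there. Epcam had between 195 and 278 CPM in ERI-R and at most 10.5 CPM in the other 9 libraries, Cdh1 between 80.5 and 376 CPM in ERI-R and at most 13.3 CPM elsewhere, and Krt14 between 151 and 788 CPM in ERI-R and at most 5.59 CPM elsewhere. The 5 mesenchymal markers summed to between 646 and 2103 CPM in ERI-R and between 9784 and 13247 CPM in Control. The part of these epithelial and mesenchymal differences in the results was not tested. In bulk RNA, fewer cells of a type and less RNA per cell cannot be told apart.

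**Figure D1:**
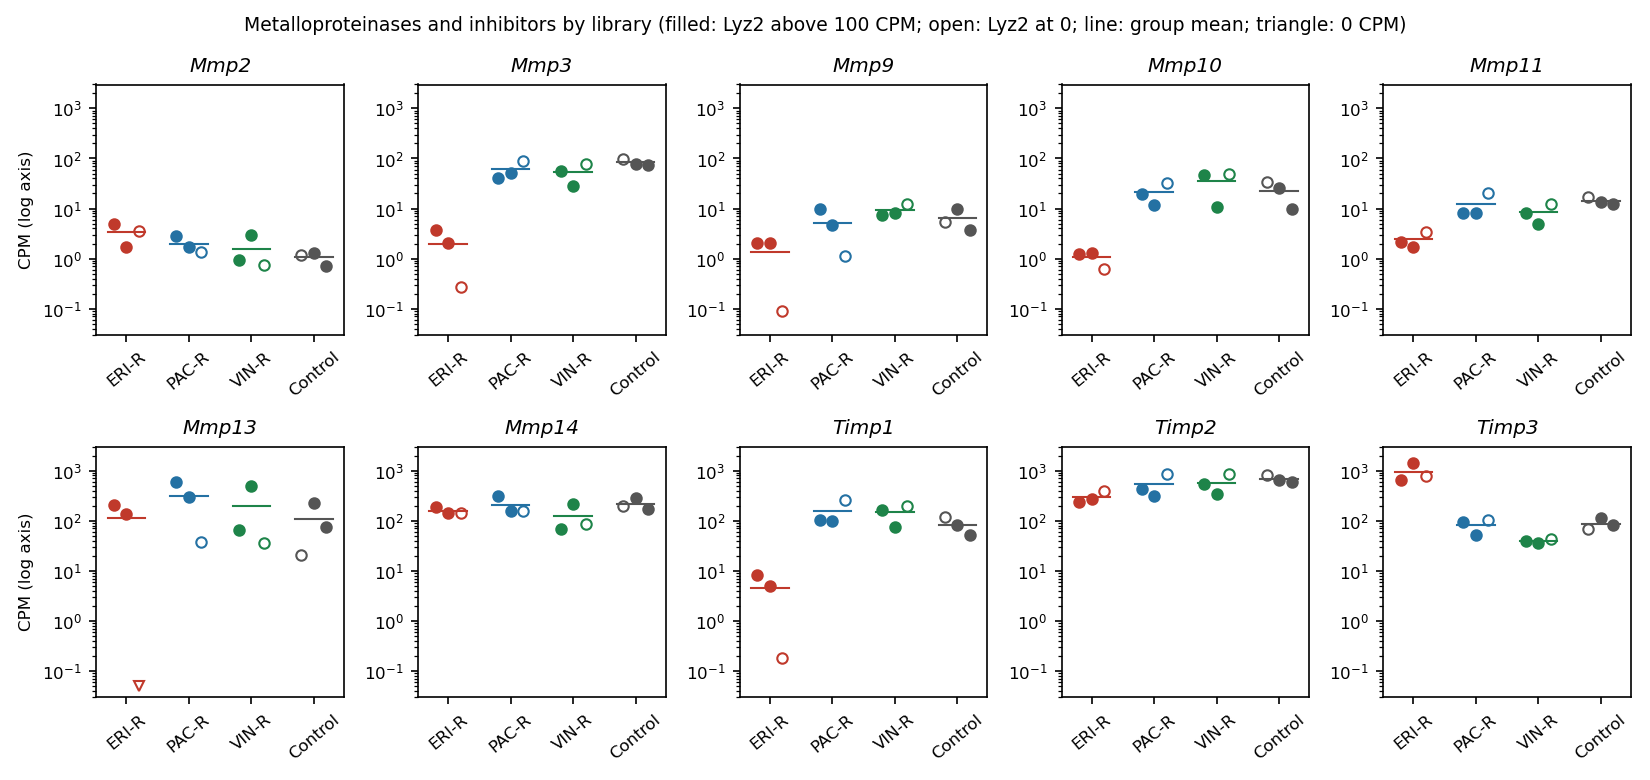
CPM of the 10 genes in each library on a log axis, with 1 point per library, a line at the group mean, filled points for libraries with Lyz2 and open points for libraries without, and a triangle for 0 CPM. Timp3 lay between 657 and 1412 CPM in ERI-R, above the other 9 libraries, while Mmp3, Mmp10, Mmp11 and Timp1 lay below the other 9 libraries in ERI-R.

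The promoters of 5 of the genes are shown because these are the genes whose levels differed most between groups or libraries. Mmp3, Mmp10 and Timp1 fell most in ERI-R, Timp3 rose there, and Mmp13 is the gene that divided with Lyz2. Mmp3, Mmp10 and Mmp13 belong to a gene cluster on chromosome 9. The sequences are the bases before the annotated start, 5′ to 3′ on the strand of the gene, from RefSeq (GRCm38.p6), in which 8 of the 10 genes were matched. Capitals mark the AP-1 motif TGAGTCA, in either orientation, and the letters TATAAA of the TATA box. They stand at chr9:7445572-7445821 for Mmp3, chr9:7502092-7502341 for Mmp10, chr9:7272264-7272513 for Mmp13, chrX:20869916-20870165 for Timp1 and chr10:86300162-86300371 for Timp3, all on the plus strand.
Mmp3: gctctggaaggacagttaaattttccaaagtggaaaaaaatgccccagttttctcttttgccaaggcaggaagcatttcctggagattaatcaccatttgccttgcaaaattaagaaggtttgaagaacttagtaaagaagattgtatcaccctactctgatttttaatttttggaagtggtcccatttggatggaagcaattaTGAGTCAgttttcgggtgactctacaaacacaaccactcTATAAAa
Mmp10: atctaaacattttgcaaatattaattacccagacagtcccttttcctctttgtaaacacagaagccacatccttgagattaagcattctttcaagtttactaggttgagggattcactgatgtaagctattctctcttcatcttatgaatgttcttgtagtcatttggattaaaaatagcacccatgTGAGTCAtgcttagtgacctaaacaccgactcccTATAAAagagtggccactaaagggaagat
Mmp13: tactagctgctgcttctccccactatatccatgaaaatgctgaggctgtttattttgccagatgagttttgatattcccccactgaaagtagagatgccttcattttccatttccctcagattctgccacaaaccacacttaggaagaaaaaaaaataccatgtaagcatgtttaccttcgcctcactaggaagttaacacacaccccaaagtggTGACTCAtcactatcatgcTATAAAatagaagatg
Timp1: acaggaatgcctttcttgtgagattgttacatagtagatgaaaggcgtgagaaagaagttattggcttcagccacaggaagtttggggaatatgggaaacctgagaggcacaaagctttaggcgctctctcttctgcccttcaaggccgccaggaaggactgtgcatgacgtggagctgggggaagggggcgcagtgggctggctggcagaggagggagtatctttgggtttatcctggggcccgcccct
Timp3: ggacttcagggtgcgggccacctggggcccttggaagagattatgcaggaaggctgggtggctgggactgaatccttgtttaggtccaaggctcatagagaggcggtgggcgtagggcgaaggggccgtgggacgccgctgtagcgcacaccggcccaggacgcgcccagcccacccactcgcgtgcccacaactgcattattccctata

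The 250 bases before the start held the AP-1 motif in 3 of the 8 matched genes, Mmp3, Mmp10 and Mmp13, against 4.46% of 32851 mouse promoters searched in the same way on both strands. The motif stood at positions -46 to -40 in Mmp3, -63 to -57 in Mmp10 and -35 to -29 in Mmp13, counted back from the RefSeq start. The same 3 genes held TATAAA on the strand of the gene, against 7.59% of all promoters. These letters stood at -7 to -2 in Mmp3, -29 to -24 in Mmp10 and -16 to -11 in Mmp13, so their distance from the annotated start differed. The letters AGGAAG, a core bound by ETS factors, were searched on both strands and were found in 5 of the 8 genes, namely Mmp3, Mmp13, Mmp14, Timp1 and Timp3, against 29.5% of all promoters. The motifs do not overlap each other in the genes shown. The 3 cluster promoters held 1 CpG each, while Timp1 held 6, Mmp14 held 10, Mmp11 held 14, Timp3 held 18 and Timp2 held 21. For Mmp11 and Timp2 the whole window before the RefSeq start lies inside the gene as GENCODE annotates it. All promoters had a median of 6 CpG and a range of 1 to 25 between the 10th and 90th percentiles. A match is only a string of letters in this window and not a measured site.

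In ERI-R against Control Timp3 rose 10.5-fold, while the stromelysins Mmp3, Mmp10 and Mmp11 and the inhibitor Timp1 fell, by between 5.76 and 46.8 times. Of the 10 genes, 5 were called (edgeR's quasi-likelihood test, with p adjusted by Benjamini-Hochberg over every gene tested and a threshold of 0.05), 1 higher and 4 lower. Over all genes the called share was 19.2%, with 9.51% higher and 9.69% lower. In 8 of the 10 genes the 3 ERI-R libraries did not overlap the 3 Control libraries, which was so for 35% of all genes. The median log2 fold change of the 10 genes was -1.78, against -0.0044 over all genes.

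Mmp3 and Mmp10 are the stromelysins 1 and 2, secreted enzymes that cut proteoglycans, laminin and fibronectin and that activate other proenzymes. Mmp3 (chromosome 9, 7445822 to 7455975, GRCm38) had 3.66, 2.00 and 0.269 CPM in ERI-R 1, 2 and 3, against 98.6, 77.9 and 73.5 CPM in Control 1, 2 and 3. Every ERI-R library was far below every Control library, and ERI-R 3 was the lowest with 3 counts. On the log2 scale the fold change was -5.55 (SE 0.71, edgeR adjusted p = 7.0e-04). PAC-R had 41.1, 52.4 and 87.2 CPM and VIN-R had 57.5, 28.2 and 76.7 CPM of Mmp3. These libraries overlapped those of Control and lay above those of ERI-R. The change in ERI-R was -6.25 without ERI-R 1, -4.93 without ERI-R 3 and -4.86 in the 8 libraries with Lyz2, and it was called in each.

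Mmp10 (chromosome 9, 7502352 to 7510240) had 1.25, 1.31 and 0.628 CPM in ERI-R, against 33.4, 25.2 and 9.64 CPM in Control. The ERI-R libraries lay below the lowest Control library, Control 3. The log2 fold change was -4.50 (SE 0.70, edgeR adjusted p = 0.0016), and it was -3.87 (edgeR adjusted p = 0.021) in the 8 libraries with Lyz2. PAC-R had 19.6, 11.7 and 32.4 CPM, while VIN-R had 47.4, 10.7 and 48.7 CPM. The libraries of both lines overlapped those of Control and lay above those of ERI-R.

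Mmp11, stromelysin 3, is an enzyme that is activated inside the cell and is known from the stroma of breast tumours. It (chromosome 10, 75923222 to 75936496, minus strand) had 2.14, 1.74 and 3.41 CPM in ERI-R, against 17.1, 13.5 and 12.1 CPM in Control. The groups did not overlap. This gave a log2 fold change of -2.53 (SE 0.52, edgeR adjusted p = 0.0063). PAC-R had 8.18, 8.29 and 20.8 CPM and VIN-R had 7.96, 4.93 and 12.3 CPM, all above ERI-R. Mmp11 overlaps Chchd10 on the opposite strand, which had between 3.49 and 30.2 CPM in ERI-R and between 0.739 and 2.40 CPM in Control. How the counting treated the strands is unknown, and whether reads were shared within such pairs was not tested. The expected counts of Mmp11 were whole numbers in every library, as were those of Timp1 and Timp3, so they show no division of reads into fractions.

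Mmp13, a collagenase that cuts fibrillar collagen, varied more within groups than between them. It (chromosome 9, 7272514 to 7283331) had 207, 136 and 0 CPM in ERI-R, 605, 294 and 37.4 CPM in PAC-R, 65.7, 496 and 35.8 CPM in VIN-R and 21.0, 225 and 73.3 CPM in Control. In each group the library without Lyz2 was the lowest. The log2 fold change of ERI-R against Control was -0.12 (SE 1.72, edgeR adjusted p = 0.98), with an interval from -3.93 to 3.69 that allows large changes either way. The sign of this value turned between alternatives, from -0.81 to 1.09 when 1 library was left out, and to 0.087 in the 8 libraries with Lyz2. The 0 in ERI-R 3 allows a level of up to 0.269 CPM at a limit of 3 counts.

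Mmp2 and Mmp9 are the gelatinases, which cut denatured collagen and the collagen of basement membranes. Both were low. Mmp2 (chromosome 8, 92827291 to 92853420) had 4.92, 1.74 and 3.50 CPM in ERI-R, against 1.19, 1.31 and 0.712 CPM in Control. The groups did not overlap, but the log2 fold change of 1.61 (SE 0.66) was not called (edgeR adjusted p = 0.13), and none of 13 alternatives called it. PAC-R had 2.87, 1.68 and 1.35 CPM and VIN-R had 0.922, 2.93 and 0.748 CPM.

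Mmp9 (chromosome 2, 164940780 to 164955850) had 2.06, 2.00 and 0.0898 CPM in ERI-R, against 5.50, 9.94 and 3.74 CPM in Control. The value of ERI-R 3 is 1 count. Its log2 fold change of -2.38 (SE 0.91) was not called (edgeR adjusted p = 0.10), though the groups did not overlap. It was called with DESeq2 (adjusted p = 0.031), with the division by Lyz2 as a term (edgeR adjusted p = 0.033) and in the 8 libraries with Lyz2 (edgeR adjusted p = 0.044). PAC-R had 9.74, 4.77 and 1.12 CPM and VIN-R had 7.29, 8.28 and 12.3 CPM, so that every VIN-R library lay above every ERI-R library. Neutrophils and macrophages are known sources of Mmp9, and the part of the leukocyte transcripts in these values was not tested.

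Mmp14, also called MT1-MMP, is anchored in the cell membrane, cuts collagen at the cell surface and activates the proenzyme of Mmp2. It (chromosome 14, 54431612 to 54445364) had 189, 144 and 144 CPM in ERI-R, 314, 160 and 156 CPM in PAC-R, 67.6, 215 and 86.0 CPM in VIN-R and 200, 281 and 175 CPM in Control. The groups overlapped, and the log2 fold change of ERI-R against Control was -0.52 (SE 0.49, edgeR adjusted p = 0.54). Its interval runs from -1.60 to 0.57.

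Among the inhibitors, Timp1 fell and Timp3 rose in ERI-R. Timp1 is a secreted inhibitor of most of the soluble enzymes, induced by growth factors and cytokines. It (chromosome X, 20870166 to 20874735) had 8.22, 4.97 and 0.180 CPM in ERI-R, against 118, 80.9 and 51.7 CPM in Control. All ERI-R libraries lay below all Control libraries, and ERI-R 3 held 2 counts. On the log2 scale the change was -4.41 (SE 0.93, edgeR adjusted p = 0.0072), with -5.13 without ERI-R 1, -3.72 without ERI-R 3 and -3.45 in the 8 libraries with Lyz2, called in each. PAC-R had 105, 99.7 and 262 CPM and VIN-R had 167, 75.1 and 201 CPM of Timp1. In both of these lines the library without Lyz2 was the highest, as it was in Control, while in ERI-R it was the lowest. Timp1 lies inside Syn1, which is on the opposite strand and had between 0.628 and 1.79 CPM in ERI-R, against between 1.86 and 6.98 CPM in Control. Syn1 lay below Timp1 in ERI-R 1 and 2 and above it in ERI-R 3. The expected counts of Timp1 were whole numbers in every library, and whether reads were shared with Syn1 was not tested.

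Timp3 binds to the extracellular matrix and inhibits ADAM and ADAMTS proteases as well as metalloproteinases. It (chromosome 10, 86300372 to 86349506) had 657, 1412 and 798 CPM in ERI-R, against 67.1, 111 and 82.2 CPM in Control. Every ERI-R library was above every other library of the study. The log2 fold change was 3.40 (SE 0.40, edgeR adjusted p = 5.3e-04), and it was 3.31 (edgeR adjusted p = 0.0021) in the 8 libraries with Lyz2. PAC-R had 94.8, 52.8 and 102 CPM of Timp3 and VIN-R had 39.3, 35.3 and 43.1 CPM. VIN-R lay below both PAC-R and Control without overlap. Timp3 lies inside Syn3, which is on the opposite strand and had between 3.49 and 6.10 CPM in ERI-R, against between 0.164 and 0.223 CPM in Control.

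Timp2 inhibits most metalloproteinases and, with Mmp14, takes part in the activation of Mmp2. It (chromosome 11, 118301069 to 118355740, minus strand) had 231, 276 and 401 CPM in ERI-R, 429, 317 and 850 CPM in PAC-R, 542, 337 and 846 CPM in VIN-R and 832, 661 and 587 CPM in Control. ERI-R lay below Control without overlap. Timp2 overlaps Cep295nl on the same strand, which did not exceed 2.78 CPM in any library. Its log2 fold change of -1.18 (SE 0.47) was not called (edgeR adjusted p = 0.11). It was -1.28 and called with the division by Lyz2 as a term (edgeR adjusted p = 0.0047), and -1.41 and called in the 8 libraries with Lyz2 (edgeR adjusted p = 0.013).

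**Figure D2:**
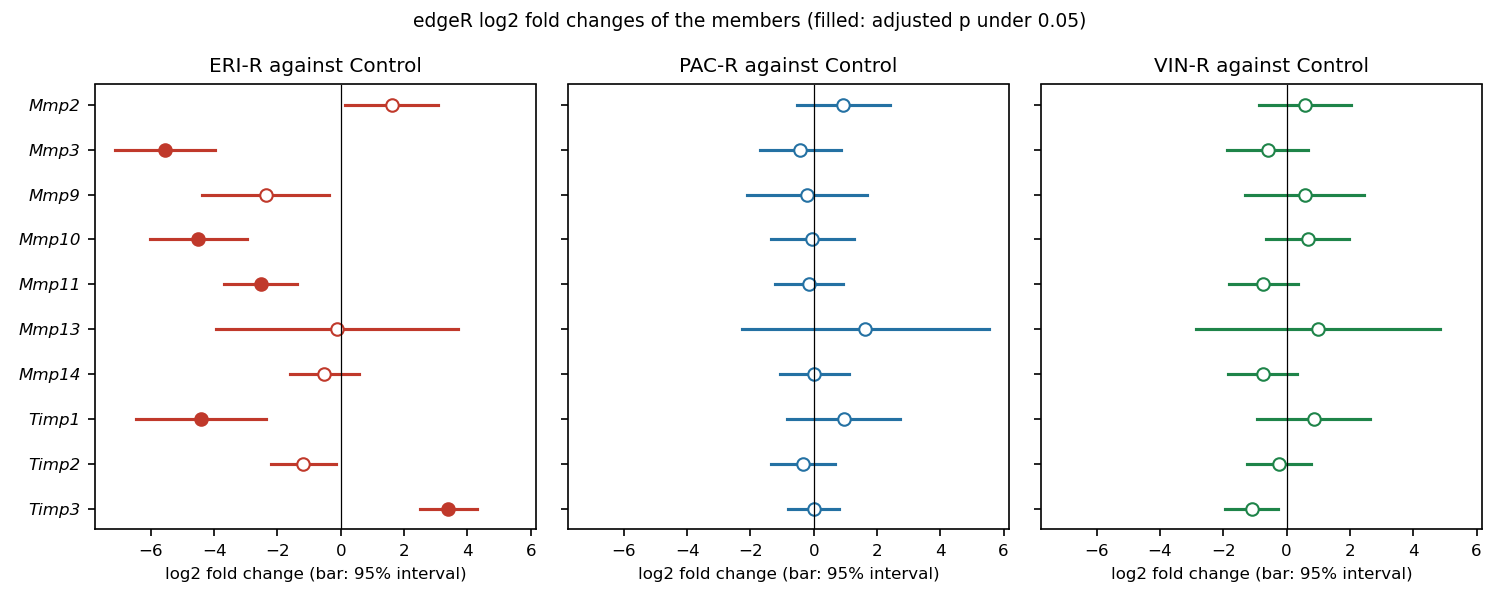
Log2 fold changes of the 10 genes against Control in ERI-R, PAC-R and VIN-R from the edgeR fit, with points for the estimate, bars for the 95% interval and filled points for an adjusted p under 0.05. In ERI-R Mmp3, Mmp10, Mmp11 and Timp1 lie between -5.55 and -2.53 and Timp3 lies at 3.40, while no point is filled in PAC-R or VIN-R.

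Neither PAC-R nor VIN-R differed from Control in a called gene of the set. All 3 lines share the Control libraries, so their comparisons are not independent. In PAC-R against Control edgeR called 0 of the 10 genes, 0 at an unadjusted p under 0.05, and DESeq2 called 0, where edgeR called 0% of all genes. The libraries of 1 gene, Mmp2, did not overlap, which was so for 7.58% of all genes. In VIN-R against Control edgeR called 0 of the 10 genes, 1 at an unadjusted p under 0.05, and DESeq2 called 0, with 0% of all genes called by edgeR. That gene, Timp3, had a log2 fold change of -1.11 (SE 0.37, unadjusted p = 0.013 in edgeR's test), and it was also the gene whose libraries did not overlap, as for 8.35% of all genes. The intervals of the uncalled genes were wide. Timp1 ran from -0.84 to 2.73 in PAC-R and from -0.93 to 2.64 in VIN-R, and Mmp3 from -1.71 to 0.86 in PAC-R and from -1.88 to 0.69 in VIN-R.

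The resistant lines were also compared with each other. In ERI-R against PAC-R 5 of the 10 genes were called, 1 higher and 4 lower, where 18.7% of all genes were called, 9.19% higher and 9.55% lower. The 5 genes were Timp3 with a log2 fold change of 3.39, Mmp3 with -5.13, Timp1 with -5.35, Mmp10 with -4.45 and Mmp11 with -2.38, at edgeR adjusted p between 5.8e-04 and 0.0087. The same 5 genes had libraries that did not overlap, as did 28.2% of all genes. Without ERI-R 1, Mmp3 had -5.84 and Timp1 -6.09, and without ERI-R 3 they had -4.52 and -4.68. In the 8 libraries with Lyz2 Mmp3 had -4.22, Mmp10 -3.78 and Timp1 -4.14, and these values were called in each case. The call of Mmp11 was lost when only the libraries of ERI-R and PAC-R were fitted (edgeR adjusted p = 0.070).

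In ERI-R against VIN-R 6 genes were called, 1 higher and 5 lower, where 19.3% of all genes were called, 9.55% higher and 9.74% lower. Timp3 had a log2 fold change of 4.50 (edgeR adjusted p = 2.5e-04), Mmp10 -5.16 (edgeR adjusted p = 8.5e-04), Mmp3 -4.95 (edgeR adjusted p = 8.8e-04) and Timp1 -5.26 (edgeR adjusted p = 0.0033). These 6 genes were also those whose libraries did not overlap, against 29.3% of all genes. Mmp3 had -5.67 and Timp1 -6.00 without ERI-R 1, and they had -4.35 and -4.59 without ERI-R 3, all called. Mmp3 had -4.08, Timp1 -4.36 and Mmp9 -2.10 in the 8 libraries with Lyz2, also called. Mmp11 (-1.80, edgeR adjusted p = 0.030) and Mmp9 (-2.95, edgeR adjusted p = 0.048) were less stable, and both lost their calls when only the libraries of ERI-R and VIN-R were fitted (edgeR adjusted p = 0.12 for Mmp11 and 0.088 for Mmp9). Mmp9 lost its call without any 1 of ERI-R 1, ERI-R 2, ERI-R 3, VIN-R 1, VIN-R 2 or VIN-R 3 (edgeR adjusted p between 0.074 and 0.11), and its log2 fold change then ranged from -3.29 to -2.30. Mmp11 lost its call without ERI-R 1, ERI-R 2, VIN-R 1 or VIN-R 3 (edgeR adjusted p between 0.064 and 0.11). In PAC-R against VIN-R edgeR called 0 of the 10 genes, 1 at an unadjusted p under 0.05, and DESeq2 called 0, with 0% of all genes called by edgeR. That gene was Timp3, with a log2 fold change of 1.11 (SE 0.37), the only gene of the set without overlap, against 2.73% of all genes.

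The genes differed in how they followed the division by Lyz2. Mmp13 had between 65.7 and 605 CPM in the 8 libraries with Lyz2, with a median of 216, and between 0 and 37.4 CPM in the 4 libraries without, with a median of 28.4. It was the only gene of the set whose values did not overlap between the libraries with and without, which was so, in the higher direction, for 13.8% of all genes and, in the lower direction, for 6.33%. The other 9 genes overlapped. Timp2 had medians of 383 CPM with Lyz2 and 839 CPM without, and Timp1 had medians of 78.0 CPM with and 159 CPM without. Mmp3 had medians of 46.7 CPM with Lyz2 and 82.0 CPM without, and Mmp10 had 11.2 CPM with and 32.9 CPM without. For Mmp3 and Mmp10 the library without Lyz2 was the highest in Control, PAC-R and VIN-R. In ERI-R it was the lowest, with 0.269 CPM of Mmp3 and 0.628 CPM of Mmp10. Timp3 had 88.5 CPM with Lyz2 and 84.8 CPM without. The libraries with and without were formed from the data and hold all 4 groups, so no test was made between them. The part of leukocytes in the level of Mmp13 was not tested.

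Mmp3, Mmp10 and Mmp13 lie in a cluster of 10 metalloproteinase genes on chromosome 9 (7272514 to 7699585, GRCm38, 427 kb), in the order Mmp13, Mmp12, Mmp1b, Mmp3, Mmp1a, Mmp10, Mmp8, Mmp27, Mmp20 and Mmp7. The neighbours of the members were chosen by their position and named after their values were seen. The cluster showed 2 patterns. Mmp12, the macrophage elastase, had between 16.6 and 321 CPM with Lyz2 and between 0 and 0.520 CPM without. Mmp8, the neutrophil collagenase, had between 0.671 and 5.93 CPM with Lyz2, and Mmp27 had between 0.0838 and 3.85 CPM, while both were at 0 in all 4 libraries without. Mmp13, Mmp12, Mmp8 and Mmp27 thus divided with Lyz2, and they lie on either side of the other expressed genes. For Mmp27 the lowest value with Lyz2 is below the limit of 3 counts, so its division is uncertain. Mmp13 also differed among the 4 libraries without Lyz2, where each group has 1 library. It had 21.0 CPM in Control 1, 37.4 CPM in PAC-R 3 and 35.8 CPM in VIN-R 3, against 0 in ERI-R 3.

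The genes between Mmp12 and Mmp8 followed the line. Mmp1b, a rodent counterpart of interstitial collagenase, had no count in any of the 3 ERI-R libraries, while the other 9 had between 0.435 and 1.87 CPM. It was at least 10.1-fold lower in ERI-R, from a limit of 3 counts over the group (0.0887 CPM) against 33 counts in Control, and was called (edgeR adjusted p = 0.0028). Mmp1a also had no count in ERI-R, against between 0.251 and 1.01 CPM in the other 9 libraries, and was too low to be tested. Mmp3 and Mmp10, which stand on either side of Mmp1a, had the falls in ERI-R given above. Their expected counts held fractions in the other 9 libraries, for example 1326.85 for Mmp3 and 449.15 for Mmp10 in Control 1. In each of these 9 libraries the counts of Mmp3 and Mmp10 add up to a whole number. The estimate thus divided part of these reads between Mmp3 and Mmp10. How far the levels of Mmp3 and Mmp10 depend on each other was not tested. Mmp20 was at 0 in all 12 libraries, and Mmp7 did not exceed 0.261 CPM.

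**Figure D3:**
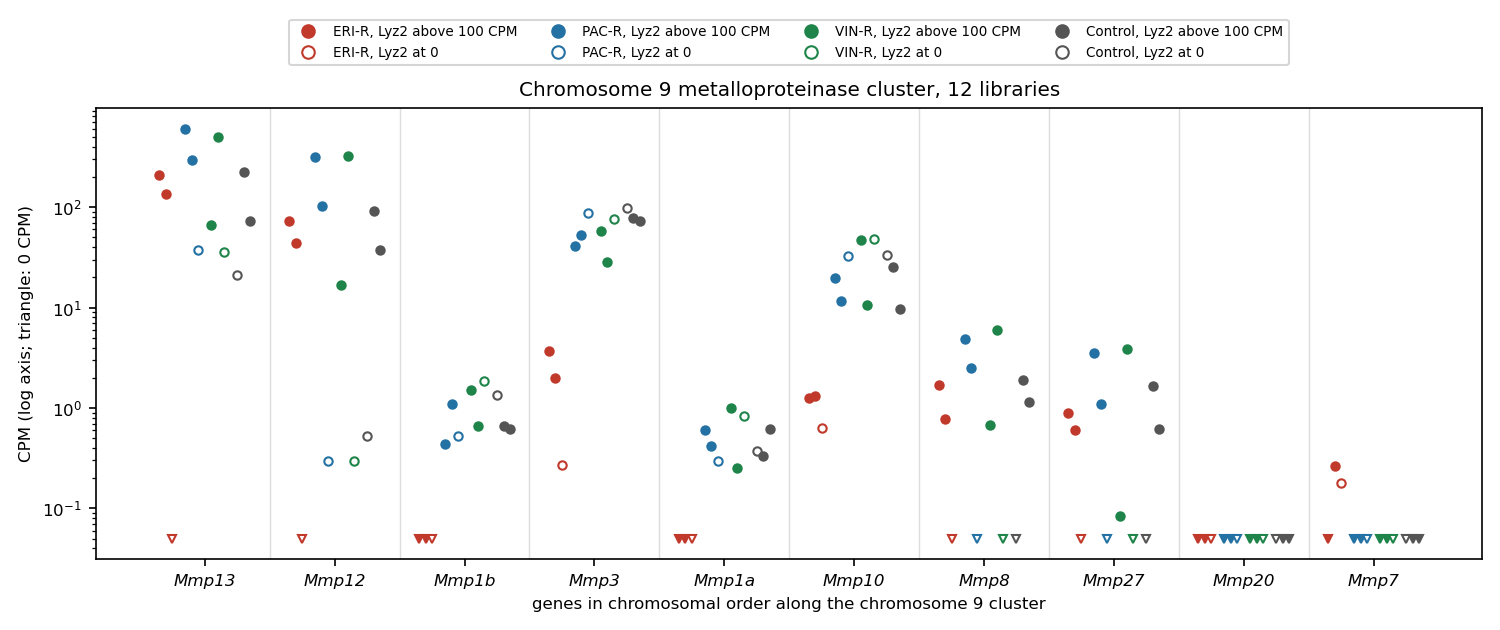
CPM on a log axis of the 10 metalloproteinase genes of the chromosome 9 cluster, in chromosomal order, with 1 point per library, filled with Lyz2 and open without, and triangles for 0 CPM. Mmp13, Mmp12, Mmp8 and Mmp27 separate filled from open points, while Mmp1b, Mmp3, Mmp1a and Mmp10 separate ERI-R from the other 9 libraries.

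Levels of different genes were compared as TPM, which are scaled to transcript length and to a total of 1000000 per library. In ERI-R the order was led by Timp3 with 295 ± 160 TPM and Timp2 with 204 ± 56.8 TPM (SD, n = 3 each), whose ranges overlapped. Mmp14 followed with 113 ± 52.5 TPM and Mmp13 with 74.3 ± 70.3 TPM. TPM and CPM differed in how they compared libraries. ERI-R 2 and ERI-R 3 both had 144 CPM of Mmp14, but 121 and 56.6 TPM. Timp3 had 657 CPM and 244 TPM in ERI-R 1, against 798 CPM and 166 TPM in ERI-R 3. The reason was not tested. Timp1 was the fifth with 10.8 ± 10.3 TPM, and Mmp2, Mmp11, Mmp3, Mmp10 and Mmp9 had means between 0.753 and 3.70 TPM with overlapping neighbours. In Control the order was Timp2 with 317 ± 64.2 TPM, Timp1 with 201 ± 81.8 TPM and Mmp14 with 178 ± 41.5 TPM, each overlapping the next. Mmp3 (82.1 ± 14.7 TPM) lay below Mmp14 without overlap. Timp3 was the sixth in Control with 30.5 ± 7.11 TPM. Mmp9 (4.28 ± 2.57 TPM) and Mmp2 (1.10 ± 0.252 TPM) were the lowest there, each below the gene before it without overlap.

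PAC-R and VIN-R had the same first 4 genes by mean TPM. PAC-R had 331 ± 159 TPM of Timp1, 243 ± 86.7 TPM of Timp2, 193 ± 177 TPM of Mmp13 and 160 ± 89.8 TPM of Mmp14. VIN-R had 322 ± 137 TPM of Timp1, 270 ± 134 TPM of Timp2, 124 ± 166 TPM of Mmp13 and 91.6 ± 72.1 TPM of Mmp14. The SD of Mmp13 was above its mean in VIN-R and below it in PAC-R, and neighbours among these 4 genes overlapped in both lines. Over the 12 libraries Mmp13 ranked anywhere between 1 and 10 by TPM within a library, while Mmp14 ranked between 2 and 4.

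The 3 inhibitors took 58.0, 75.5 and 87.1% of the summed TPM of the 10 genes in the ERI-R libraries. Their share was 40.8, 52.4 and 79.1% for PAC-R, 75.0, 40.9 and 80.5% for VIN-R, and 68.6, 51.4 and 58.9% for Control. The groups overlapped. The 4 libraries without Lyz2 had between 68.6 and 87.1%. Within that sum Timp3 had the highest mean TPM of the 3 inhibitors in ERI-R and the lowest in each of the other groups.

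**Figure D4:**
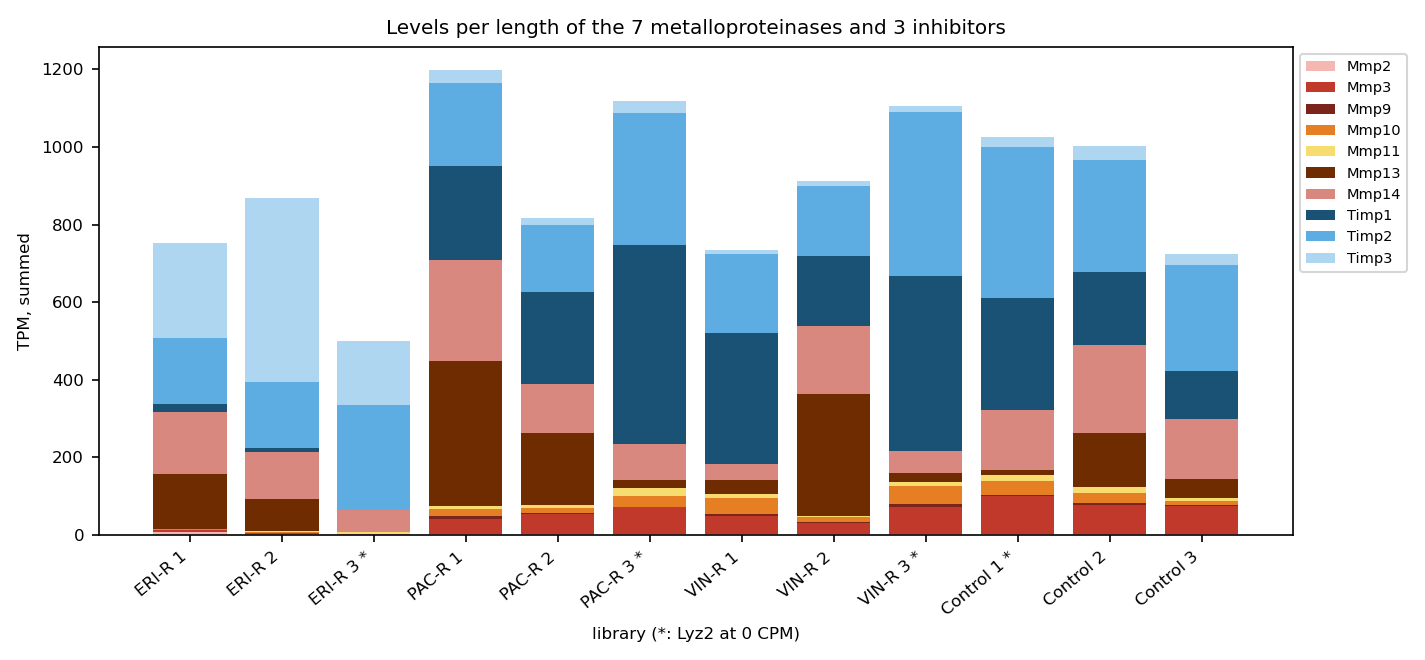
Summed TPM of the 10 genes in each library, stacked by gene, with metalloproteinases in warm colours and inhibitors in blue, and libraries without Lyz2 marked by an asterisk. Timp3, the palest blue, fills most of the inhibitor part in ERI-R 1 and 2, and Timp1 and Timp2 fill it in the other 3 groups.

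Genes that act on metalloproteinases or beside them were read from 7 further lists, 108 tested genes in all. In ERI-R against Control edgeR called 42 of them, where 19.2% of all genes were called. In PAC-R against Control edgeR called 0, with 1 at an unadjusted p under 0.05 and 0 called by DESeq2. In VIN-R against Control edgeR called 0, with 6 at an unadjusted p under 0.05 and 1 called by DESeq2. Among the other metalloproteinases 1 rose and 3 fell of 8 tested in ERI-R, where 9.51% of all genes rose and 9.69% fell. Mmp15, a membrane-anchored relative of Mmp14, had 36.6, 53.0 and 53.5 CPM in ERI-R, against 0.520, 1.81 and 1.69 CPM in Control. Its log2 fold change was 5.12 (SE 0.65, edgeR adjusted p = 6.4e-04), and no other library of the study exceeded 1.81 CPM. Mmp19 fell by 2.06 on the log2 scale (edgeR adjusted p = 0.037), a call that was lost without ERI-R 2, ERI-R 3 or any 1 Control library (edgeR adjusted p between 0.067 and 0.12). The other 2 lower genes were Mmp1b and Mmp28. Mmp28 was named after its values were seen, and its call was lost in 8 of 13 alternatives.

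Of 12 tested partners and further inhibitors, 2 rose and 4 fell in ERI-R, against 9.51% higher and 9.69% lower over all genes. The proprotein convertases Pcsk6 and Pcsk5, which cleave proenzymes, had log2 fold changes of 5.91 (SE 1.31, edgeR adjusted p = 0.0094) and 5.74 (SE 1.29, edgeR adjusted p = 0.010). The call of Pcsk5 was lost without Control 3 (edgeR adjusted p = 0.052), and without Control 2 the values were 7.09 for Pcsk6 and 7.13 for Pcsk5. Cd44, a hyaluronan receptor that anchors Mmp9 and Mmp14 at the cell surface, fell by 2.36 on the log2 scale (SE 0.49, edgeR adjusted p = 0.0066). Furin, another convertase that activates Mmp11 and Mmp14, fell by 1.56 and was named after its values were seen. Its call was lost without ERI-R 2 (edgeR adjusted p = 0.051) and without Control 1 (edgeR adjusted p = 0.075). Timp4, the remaining inhibitor of the family, was at 0 in all 12 libraries.

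Plasminogen activation, which yields plasmin, an activator of several proenzymes, had 4 higher and 4 lower of 14 tested genes in ERI-R, beside 9.51% higher and 9.69% lower of all genes. The membrane serine proteases Hpn and St14 and the serpin Serpinb5 rose, with log2 fold changes of 6.42, 5.83 and 5.87. St14 had 158, 194 and 290 CPM in ERI-R, against 3.57, 5.34 and 2.40 CPM in Control (edgeR adjusted p = 0.0019). Hpn was not called without Control 3 (edgeR adjusted p = 0.064), and it moved to 7.94 without Control 2 and to 5.67 without ERI-R 3, while Serpinb5 moved to 6.94 without Control 2. The 5 further genes, named after their values were seen, were Serpine2, which rose by 4.25, and Plau, Plat, Plaur and Lrp1, which fell. Plau, the urokinase, had 22.1, 22.0 and 2.96 CPM in ERI-R, against 395, 249 and 210 CPM in Control, a log2 fold change of -4.34 (SE 0.69, edgeR adjusted p = 0.0018). It was -3.74 without ERI-R 3 and was called there also. Its receptor Plaur fell by 2.14.

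In the ADAM and ADAMTS list 5 genes rose and 8 fell of 20 tested in ERI-R, where 9.51% of all genes rose and 9.69% fell. Adamts1, a protease of versican and aggrecan, had 529, 365 and 121 CPM in ERI-R, against 13.5, 16.3 and 8.82 CPM in Control (log2 fold change 4.57, SE 0.50, edgeR adjusted p = 4.2e-04). Adamts6 fell by 4.85 (SE 0.94, edgeR adjusted p = 0.0047), with -5.85 without ERI-R 1 and -4.15 without ERI-R 3. Adamts18 had a log2 fold change of 7.12 (SE 1.62, edgeR adjusted p = 0.011). It moved to 9.76 without Control 2, 5.03 without ERI-R 1 and 7.75 without ERI-R 3, and it was not called without Control 3 (edgeR adjusted p = 0.052). Of 15 tested cathepsins and cystatins 3 fell and 0 rose, namely Ctsw by 4.56, Ctsl by 2.62 and Ctsh by 1.36. This called share is close to the 19.2% of all genes. Ctsl, a secreted and lysosomal cysteine protease, had 367, 297 and 98.1 CPM in ERI-R and 1595, 1322 and 1352 CPM in Control. The call of Ctsh was lost when only ERI-R and Control were fitted.

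Among 22 regulators, AP-1, ETS and others, 1 rose and 3 fell in ERI-R, a called share close to the 19.2% of all genes. Fosl1, the Fra-1 subunit of AP-1, had 6.79, 6.36 and 1.80 CPM in ERI-R, 113, 131 and 220 CPM in PAC-R, 182, 125 and 184 CPM in VIN-R and 128, 101 and 120 CPM in Control. The 3 ERI-R libraries lay below the other 9, with a log2 fold change of -4.67 against Control (SE 0.44, edgeR adjusted p = 3.3e-04). The other Fos and Jun genes of the list, Fos, Fosb, Fosl2, Jun, Junb and Jund, were tested and not called. They were named after their values were seen. Etv1, an ETS factor, fell by 3.24 (edgeR adjusted p = 0.0092), with -4.07 without ERI-R 1 and -2.62 without ERI-R 3. The epithelial ETS factor Elf3 had a log2 fold change of 4.67 (edgeR adjusted p = 0.011), which was not called without Control 3 (edgeR adjusted p = 0.059). Of 17 cytokines and receptors 2 rose and 2 fell, also near the 19.2% called over all genes. Fgf2 fell by 5.22 (edgeR adjusted p = 0.0029), with -6.81 without ERI-R 1 and -4.56 without ERI-R 3. Csf2 fell by 4.96 (edgeR adjusted p = 0.0023), with -4.27 without ERI-R 3. Osmr, a receptor subunit for oncostatin M, rose by 3.43 (edgeR adjusted p = 0.0039).

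Genes whose log2 CPM followed each member most closely over the 12 libraries were found by the root mean square difference after centring, among 10514 genes. For Mmp3 they were Fbln2 and Cxcl12, both at 0.28 on the log2 scale. For Timp1 they were Parvb at 0.37 and Rgs16 at 0.42, and for Timp3 Ntn1 at 0.40 and Pak3 at 0.53. Mmp10 was nearest to Pbp2 (0.41) and Oaf (0.44), and Mmp11 to Prss22 (0.28) and Bmp1 (0.32). Mmp13, the gene that divided with Lyz2, was nearest to Gbp9 (0.50) and Syk (0.52). Mmp9 was nearest to Apbb1ip (0.67) and Lrrc8c (0.68), at the largest distances of the set. Timp2 had Selenon (0.18) and Tcf3 (0.21), Mmp14 had Hivep3 (0.31) and Neu1 (0.35), and Mmp2 had Cnp (0.36) and Stat3 (0.39). The SDs of the members themselves ran from 0.63 for Mmp14 to 3.27 for Mmp13 on the same scale, so a small distance means less for the steady genes. The libraries share their groups and their leukocyte content, which these distances do not separate.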

How the data were processed

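Per the labels' protocols, a Kapa mRNA HyperPrep kit was used on 200 ng of RNA and sequencing was paired-end with 76 bp reads. The submitters' processing notes name bcl2fastq 2.20.0.422, cutadapt 2.4, STAR 2.7.2b, RSEM 1.3.2 and GRCm38, with no roles. Neither annotation nor strand setting is stated. The authors deposited, per the file headers, RSEM tables per gene with expected counts (estimated read pairs, not normalized) and TPM (scaled by length and library total, by the authors).

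Genes were read by identifier with GENCODE M21 (GRCm38) positions, and all 198 symbols of the lists were matched. Rounding of the expected counts altered 15.3% of the values above 0. CPM are counts per 1000000 of the library total. The edgeR 4.0.16 quasi-likelihood test (R 4.3.3, limma 3.58.1, TMM scaling, filterByExpr, robust) was fitted to all 12 libraries, with 8 residual degrees of freedom; its biological coefficient of variation was 0.591. P-values were adjusted by Benjamini-Hochberg over the 14226 genes tested in each of 6 comparisons, and a gene was called at an adjusted p under 0.05. Intervals of fold changes are at 95%. Limits from 3 counts cover counting error only. Promoters came from RefSeq (GRCm38.p6) and were searched in the 250 bases before the start; Timp3 is printed only up to the GENCODE start.

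The alternatives were DESeq2 1.42.0, its size factors within edgeR, no filter on low counts, only the 2 groups compared, the division by Lyz2 (above 100 CPM) as a term, only the 8 libraries with Lyz2, a replicate block, and each library left out. Replicate numbers come from the labels, which do not say what they mark; libraries of 1 number deviated together (every correlation over 0.1) only in ERI-R with PAC-R and PAC-R with VIN-R. The members and lists were chosen with earlier results of these data known. Named genes were the 10 members, per list the 3 called genes with the largest change against Control (mean 5 CPM or more in either group), and the 2 nearest genes per member. Genes outside this rule are marked in the text.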

Additional observations from a re-analysis of the deposited data

Results flagged for a closer look

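Genes of the set were marked where the difference between 2 resistant lines was itself called in edgeR's quasi-likelihood test, which makes these the places where the lines, each set against the same Control libraries, had unlike effects. ERI-R differed from PAC-R in Mmp3 (log2 fold change -5.13), Mmp10 (-4.45), Mmp11 (-2.38), Timp1 (-5.35) and Timp3 (3.39). ERI-R differed from VIN-R in Mmp3 (log2 fold change -4.95), Mmp9 (-2.95), Mmp10 (-5.16), Mmp11 (-1.80), Timp1 (-5.26) and Timp3 (4.50). Against VIN-R the call of Mmp9 was lost in 7 of 13 alternatives and that of Mmp11 in 5, so these differences are less certain. Timp3 was the gene that ERI-R had at higher levels in both, and all 3 of its ERI-R libraries lay above the other 9.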

How the results depend on the processing

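The 5 calls of ERI-R against Control (Mmp3, Mmp10, Mmp11, Timp1 and Timp3) held in all 13 alternatives, with log2 fold changes of -6.25 to -4.86 for Mmp3, -4.88 to -3.87 for Mmp10, -2.92 to -2.24 for Mmp11, -5.13 to -3.45 for Timp1 and 3.16 to 3.68 for Timp3. With 1 library left out, 5 members were called in ERI-R against Control, 5 against PAC-R, 4 to 5 against VIN-R and 0 in the other comparisons. The same changes gave 1866 to 2868, 1854 to 2922 and 2040 to 2903 called genes for ERI-R against Control, PAC-R and VIN-R, and 0 elsewhere. The division by Lyz2 as a term gave 4445, 4176 and 4227 called genes in these comparisons, and 3 and 3 in PAC-R and VIN-R against Control. Fits of only the 2 groups compared gave 1744, 1254 and 1493, where fewer samples enter. DESeq2 called 23 genes in PAC-R against Control, 36 in VIN-R against Control and 3 in PAC-R against VIN-R.

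Same-numbered libraries had correlations of their deviations from the group means between -0.863 and 0.917, over 0.1 in 11 of 18 pairs. The comparisons with Control held values under 0.1, and so did ERI-R with VIN-R (0.083 for number 1). All 3 pairs exceeded 0.1 between ERI-R and PAC-R (0.62, 0.61 and 0.76) and between PAC-R and VIN-R (0.22, 0.75 and 0.92). Number 3 is the library without Lyz2 in each of these lines, and ERI-R 1 correlated more with PAC-R 2 (0.70) than with PAC-R 1. With the replicate block 6 members were called in ERI-R against Control (Timp2 was added, edgeR adjusted p = 0.040), 5 in ERI-R against PAC-R and 6 in ERI-R against VIN-R, and 2666, 2604 and 2639 genes.

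Beside the values of Mmp9 and Timp2 against Control given above, Timp2 was called with the division by Lyz2 as a term in ERI-R against PAC-R (edgeR adjusted p = 0.036) and VIN-R (0.019), and Mmp9 in ERI-R against PAC-R in the 8 libraries with Lyz2 (0.033). Uncalled values turned in sign as follows, and the cause was not tested. In the 8 libraries with Lyz2, Mmp13 in ERI-R against Control had 0.087, Mmp9 and Timp3 in PAC-R against Control had 0.15 and -0.32, and Timp1 in PAC-R against VIN-R had -0.22. With the division by Lyz2 as a term Mmp14 in PAC-R against Control had -0.0045. With 1 library left out, PAC-R against Control ran from -0.44 to 0.34 for Mmp10, -0.70 to 0.075 for Mmp11, -0.46 to 0.27 for Mmp14, -1.11 to 0.29 for Mmp9 and -0.16 to 0.26 for Timp3. VIN-R against Control ran from -1.09 to 2.21 for Mmp13, -0.36 to 0.94 for Mmp2 and -0.60 to 0.0029 for Timp2. PAC-R against VIN-R ran from -0.37 to 2.72 for Mmp13, -0.091 to 1.30 for Mmp2, -0.16 to 0.48 for Mmp3, -0.47 to 0.35 for Timp1 and -0.56 to 0.27 for Timp2. Mmp13 ran from -0.81 to 1.09 in ERI-R against Control and from -1.82 to 0.96 in ERI-R against VIN-R, and Mmp14 from -0.087 to 0.98 in ERI-R against VIN-R. At 1 to 3 counts, the levels of Mmp9, Timp1 and Mmp3 in ERI-R 3 are known only to within counting error.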
